A study of Mus musculus with 6 samples.

Results

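The 8 genes described here encode proteins of the red cell membrane and of the protein skeleton beneath it: Sptb, Ank1, Epb41, Epb42, Slc4a1, Rhag, Gypc and Tmod1. They were chosen by name, and each matched 1 of the 41325 gene rows in every library. The animals were females of ICR, an outbred mouse stock, 10 weeks old when purchased and allowed 7 days to settle, and the tissue label reads salivary gland. Every animal carried the same drug exposure, intraperitoneal 5-fluorouracil (5-FU, an antimetabolite that blocks thymidylate synthesis) at a daily dose of 20 mg/kg, injected 2 times weekly throughout 3 weeks. In 1 group an elemental diet, which supplies nitrogen as free amino acids and needs little digestion, was dosed by mouth at 1.6 kcal in 0.8 mL daily. It was divided into 2 doses a day on 5 days of each week. The control group, whose diet label reads control diet, was dosed with an equal volume of saline on the same schedule. Each group had 3 libraries. The series used here holds no animal spared 5-FU. The labels do not say which gland was taken or whether each library was a separate mouse, and p-values therefore measure the spread between libraries, which may be technical.

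The red cell keeps its shape and survives the circulation because a lattice of spectrin lies under its lipid bilayer. Beta spectrin (Sptb) forms part of its long flexible rods. At their ends the rods meet on short actin filaments, where the Epb41 protein strengthens the spectrin-actin contact and also holds glycophorin C (Gypc), and where tropomodulin (Tmod1) caps the actin filament. Nearer the middle of the rods, ankyrin (Ank1) ties beta spectrin to the chloride-bicarbonate exchanger Slc4a1, the most abundant membrane protein of the red cell, and Epb42 steadies that attachment. Rhag, the Rh-associated glycoprotein, belongs to the same ankyrin complex and is needed for the Rh blood group proteins to reach the surface. These transcripts are made in nucleated erythroid precursors, which in adult mice sit in the bone marrow and spleen, and inherited loss of several of the proteins gives spherocytosis or elliptocytosis. Epb41 and Gypc are also transcribed in many cells outside the red lineage.

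In GRCm38 coordinates, as the files give them, Sptb (ENSMUSG00000021061) lies on chromosome 12 from 76580488 to 76710547 and Ank1 (ENSMUSG00000031543) on chromosome 8 from 22974844 to 23150497. Slc4a1 (ENSMUSG00000006574) lies on chromosome 11 from 102348824 to 102366203, Epb42 (ENSMUSG00000023216) on chromosome 2 from 121017891 to 121037072 and Rhag (ENSMUSG00000023926) on chromosome 17 from 40811126 to 40840754. Chromosome 4 holds both Tmod1 (ENSMUSG00000028328, 46038935 to 46116032) and Epb41 (ENSMUSG00000028906, 131923413 to 132075321). Reads were counted over exons and introns of these spans. The union of exons ranged from 2331 bases for Gypc to 15942 bases for Epb41, which had 19 annotated transcripts.

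Promoter windows of 250 bases before the transcription start were taken for the members from RefSeq (GRCm38.p6), and 5 members had at least 1 window. No window was held for Slc4a1, Ank1 and Gypc. The windows of the 4 members that rose more than 20-fold and had one are printed. They were chosen by the size of the rise, and some windows of Epb41, not printed, also hold matches to the motifs searched on both strands. These were AGATAA or TGATAA, a core bound by the erythroid factor GATA1, and CCNCNCCC, the CACC box type bound by KLF1 and related factors. Capitals mark the matches to these motifs, and a match on the opposite strand appears as its reverse complement.
Rhag: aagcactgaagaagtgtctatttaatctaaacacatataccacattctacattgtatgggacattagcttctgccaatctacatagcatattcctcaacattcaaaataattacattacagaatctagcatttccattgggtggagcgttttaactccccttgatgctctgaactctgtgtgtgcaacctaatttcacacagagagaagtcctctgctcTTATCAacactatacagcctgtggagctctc
Epb42: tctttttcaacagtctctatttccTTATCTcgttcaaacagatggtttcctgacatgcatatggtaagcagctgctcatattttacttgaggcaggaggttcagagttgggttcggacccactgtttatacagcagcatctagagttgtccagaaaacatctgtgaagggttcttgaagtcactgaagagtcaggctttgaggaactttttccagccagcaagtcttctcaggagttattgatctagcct
Sptb: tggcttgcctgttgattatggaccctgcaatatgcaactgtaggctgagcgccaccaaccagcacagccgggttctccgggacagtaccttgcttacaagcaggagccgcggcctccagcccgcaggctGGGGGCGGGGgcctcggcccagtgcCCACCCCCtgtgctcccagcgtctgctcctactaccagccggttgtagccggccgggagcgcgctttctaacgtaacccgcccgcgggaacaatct
Tmod1: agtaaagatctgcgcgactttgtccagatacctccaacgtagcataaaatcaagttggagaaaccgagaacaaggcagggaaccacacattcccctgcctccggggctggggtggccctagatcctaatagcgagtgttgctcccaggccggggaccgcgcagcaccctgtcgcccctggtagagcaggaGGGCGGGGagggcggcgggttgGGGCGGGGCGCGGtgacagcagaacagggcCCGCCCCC
The Rhag window is chr17:40810899-40811148 on the plus strand, and its TTATCA lies 31 to 26 bases before the start. In the Epb42 window, chr2:121036878-121037127 on the minus strand, TTATCT lies 226 to 221 bases before the start. A TATAAA motif, also searched on both strands and not in capitals, matched in the Epb42 window alone among the members, 126 to 121 bases before the start as TTTATA. Neither the Rhag nor the Epb42 window holds the CACC box type. The Sptb window (chr12:76710548-76710797, minus strand) holds 3 matches to CCNCNCCC and the Tmod1 window (chr4:46038972-46039221, plus strand) holds 4, overlapping matches included, and neither holds the GATA type. Of the 3 windows of Epb41, the outer ones hold 3 and 6 matches to CCNCNCCC and the middle one none. In 32851 RefSeq windows of the same length, 16.6% held the GATA type, 45.9% the CACC box type and 12.4% TATAAA. The G and C content of the printed windows was 39.2% for Rhag, 43.2% for Epb42, 65.2% for Sptb and 64.0% for Tmod1. Distances are from the RefSeq starts, which differ from the 5' ends of some gene rows. That end lies inside the window for Rhag (40811126) and Epb42 (121037072). For Tmod1 it lies before the whole window (46038935), which is thus within the counted span. A match describes letters and is not a measured binding site.

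Between 29053287 and 33073125 reads were assigned to genes in each library, so that 3 reads, the limit that a count of 0 allows, corresponded to 0.0907 to 0.103 CPM (counts per 1e6 gene reads of a library). All 14 erythroid precursor markers found (15 listed) were at 1 CPM or more in every library, and all 14 rose with the elemental diet. Their summed level was 36366 to 38242 CPM with the elemental diet and 3128 to 4871 CPM with saline, most of it hemoglobin. Marker sums and limits are per library total, whereas CPM values of single genes given after this paragraph are scaled with TMM factors. Of 21 salivary gland epithelium markers 5 reached 1 CPM in every library. Smgc, Pip, Bpifa1, Dcpp1 and Prb1 had no read in any library, and the acinar water channel Aqp5 had at most 0.136 CPM. The summed salivary level was 254 to 261 CPM against 125 to 127, and most of the higher sum was Kcnn4, a potassium channel that red cells also carry. B cell markers (10 of 10) fell, from a sum of 7971 to 8329 CPM with saline to 835 to 931 with the elemental diet. Megakaryocyte and platelet markers (10 of 10) were called higher with TMM scaling, and summed to 4052 to 4937 CPM against 1987 to 2114. Per library total Pf4 overlapped between groups, at 474, 558 and 509 CPM with the elemental diet and 492, 484 and 514 with saline. With TMM scaling 38.0% of all genes were called higher and 40.2% lower. Skeletal and heart muscle markers, listed because Ank1 and Tmod1 are also muscle transcripts, summed to 51.4 to 69.3 CPM with the elemental diet and 133 to 136 with saline. Their part in the changes of the members was not tested, and in bulk libraries fewer cells of a type and less RNA per cell cannot be told apart.

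All 8 membrane and skeleton genes had enough reads to be tested, and all 8 were higher with the elemental diet, by 2.79-fold to 43.3-fold. Those that rose more than 20-fold were Tmod1, Slc4a1, Epb42, Ank1, Rhag and Sptb. Gypc and Epb41, the pair that meets at the spectrin-actin junction, rose 4.67-fold and 2.79-fold. The median log2 fold change of the 8 was 4.90, while the median of all 18303 genes tested was -0.08. Across those genes 38.0% were called higher and 40.2% lower, or 78.1% in either direction, at an adjusted p of 0.05, so a call alone sets the members little apart. Only 19.1% of genes were called and more than 2-fold higher, 3.03% more than 10-fold and 1.39% more than 20-fold. The members' groups did not overlap in any of the 8 genes, which held for 81.0% of all genes. Against a null of a 1.5-fold change, the 8 members were still called higher, as were 24.2% of all genes.

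**Figure D1:**
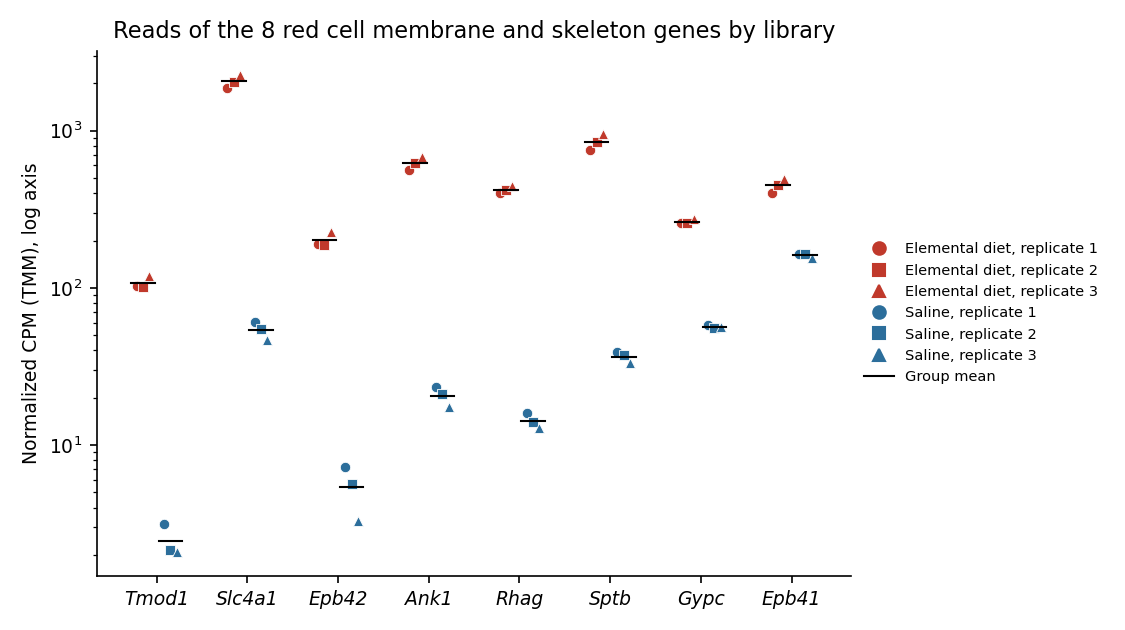
Read level of each of the 8 genes in each of the 6 libraries, in CPM on a log axis, with points for libraries and bars for group means. Every elemental diet point lies above every saline point, with the smallest ratio for Epb41 (403 against 165 CPM) and the widest for Tmod1 (102 against 3.15 CPM).

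Slc4a1, the anion exchanger, had the most reads of the 8 genes with the elemental diet. It stood at 1864, 2038 and 2271 CPM in elemental diet replicates 1 to 3, and at 61.0, 54.6 and 46.5 CPM in saline replicates 1 to 3. The lowest elemental diet library was 30.6 times the highest saline library. The change was 38.1-fold (log2 5.25, SE 0.13, adjusted p = 5.26e-09, edgeR quasi-likelihood test).

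Ank1, which couples Slc4a1 to spectrin, measured 564, 622 and 678 CPM with the elemental diet and 23.3, 21.0 and 17.6 CPM with saline. The libraries kept the same order within each group as for Slc4a1. Ank1 rose 30.1-fold (log2 4.91, SE 0.11, adjusted p = 2.36e-10). Skeletal muscle uses shorter Ank1 transcripts, and the gene rows do not separate isoforms.

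Epb42, the protein that steadies the Slc4a1-ankyrin contact, reached 189, 186 and 226 CPM with the elemental diet. In the saline libraries it stood at 7.25, 5.62 and 3.29 CPM, the widest spread of any member, with the highest library 2.20 times the lowest. These values rested on 251, 187 and 107 reads. Epb42 rose 37.0-fold (log2 5.21, SE 0.25, adjusted p = 1.60e-05), and its SE was the largest of the 8. Its printed window holds 1 GATA type match, far from the RefSeq start used but nearer the 5' end of its gene row.

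Rhag, the Rh-associated glycoprotein, was at 402, 420 and 442 CPM against 15.9, 14.1 and 12.8 CPM. With the elemental diet it varied least among the members that rose more than 20-fold, the highest library being 1.10 times the lowest. The rise was 29.5-fold (log2 4.88, SE 0.08, adjusted p = 7.50e-15). Its printed window holds 1 GATA type match close to the start.

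Sptb, beta spectrin, had 758, 842 and 952 CPM with the elemental diet and 38.9, 37.1 and 33.2 CPM with saline. It rose 23.3-fold (log2 4.55, SE 0.10, adjusted p = 2.15e-11), the smallest change among the members that rose more than 20-fold. The lowest elemental diet library was 19.5 times the highest saline library.

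Tmod1, the actin filament cap, was the scarcest member. It stood at 102, 102 and 118 CPM with the elemental diet and at 3.15, 2.16 and 2.09 CPM with saline, the latter from 109, 72 and 68 reads. Its 43.3-fold rise (log2 5.44, SE 0.12, adjusted p = 3.56e-12) was the largest of the 8. By log2 fold change it ranked 68 among the 18303 genes, followed by Slc4a1 at 79, Epb42 at 84, Ank1 at 123, Rhag at 128 and Sptb at 188.

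Gypc, glycophorin C (ENSMUSG00000090523, chromosome 18, 32528322 to 32560034), measured 258, 259 and 275 CPM with the elemental diet and 58.0, 55.2 and 56.2 CPM with saline. Both groups were tight, the highest library being 1.07 and 1.05 times the lowest. Gypc rose 4.67-fold (log2 2.22, SE 0.05, adjusted p = 8.70e-14) and ranked 1095.

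Epb41, the protein that joins spectrin, actin and glycophorin C, started from the highest saline level of all members by reads, 164, 165 and 156 CPM. With the elemental diet it reached 403, 454 and 493 CPM. It rose 2.79-fold (log2 1.48, SE 0.07, adjusted p = 2.77e-10) and ranked 2115.

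**Figure D2:**
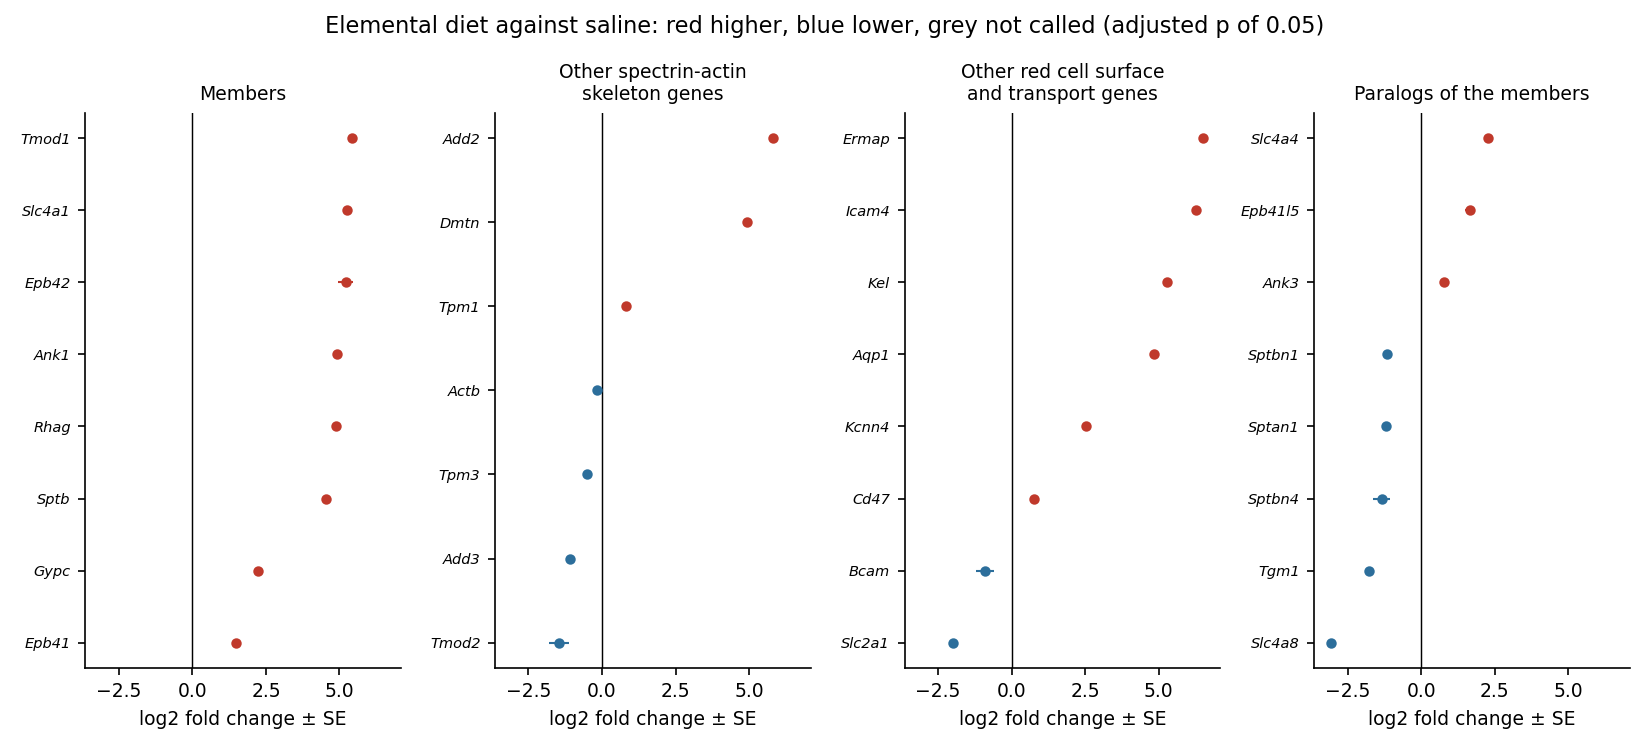
Log2 fold change, elemental diet over saline, of each of the 8 genes and of genes named in the text from the lists of other skeleton genes, other surface genes and paralogs, with error bars of 1 SE. Among the 8 genes, Tmod1 (5.44) to Sptb (4.55) lie close together, while Gypc (2.22) and Epb41 (1.48) stand apart below them.

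The libraries of a group kept a similar order across the members in scaled CPM, and the same count over all genes was not made. Elemental diet replicate 3 was the highest of its group for 8 of 8 members and replicate 1 the lowest for 6. The order depends in part on scaling, with TMM factors of 0.926, 0.889 and 0.881 in elemental diet replicates 1 to 3. Per library total Gypc was lowest in replicate 2 (230 CPM against 239 in replicate 1). Among the saline libraries replicate 1 was highest for 7 members (all but Epb41) and replicate 3 lowest for 7 (all but Gypc). As a share of all gene reads the 8 genes took 0.420%, 0.438% and 0.480% with the elemental diet and 0.0415%, 0.0394% and 0.0362% with saline. Hemoglobin reads took 3.57%, 3.35% and 3.36% against 0.484%, 0.326% and 0.299%, so saline replicate 1 was highest in both, whereas elemental diet replicate 3 was not highest in hemoglobin. No single library set a call: leaving out each of the 6 in turn kept all 8 genes called higher.

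Levels between genes were compared per length, as the deposited TPM (reads per exon length, scaled to a fixed sum). With the elemental diet the order was Slc4a1 (1086 TPM ± 96.0), Rhag (422 ± 15.3), Gypc (252 ± 10.6), Sptb (177 ± 18.5), Ank1 (106 ± 8.77), Epb42 (85.1 ± 8.07), Epb41 (68.6 ± 6.48) and Tmod1 (56.7 ± 4.70), as mean ± SD over 3 libraries. No neighbours in this order overlapped. With saline the order began with Gypc at 67.5 TPM ± 0.506, followed by Slc4a1 at 37.9 ± 5.57, Epb41 at 31.7 ± 1.56, Rhag at 18.5 ± 1.73 and Sptb at 9.81 ± 0.958. Ank1 at 4.39 ± 0.607, Epb42 at 3.23 ± 1.16 and Tmod1 at 1.77 ± 0.487 closed it. Slc4a1 overlapped Epb41 there, Ank1 overlapped Epb42, and Epb42 overlapped Tmod1, so those neighbours were not ordered beyond their spread. Per length values of Epb41 depend on the exon union of its 19 transcripts, which is longer than any 1 transcript if exons are alternative.

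The make-up of the set differed between the groups. The summed TPM of the 8 genes was 2116, 2205 and 2438 with the elemental diet and 185, 176 and 163 with saline. Slc4a1 took 48.2% ± 0.741 (SD, n = 3) of the sum with the elemental diet and 21.6% ± 1.86 with saline. Rhag took 18.7% against 10.6%, and Sptb, Ank1, Epb42 and Tmod1 also took larger shares. Gypc went the other way, from 38.8% ± 2.72 with saline to 11.2% ± 0.374, and Epb41 from 18.2% ± 0.696 to 3.04% ± 0.0816. None of the 8 shares overlapped between groups, and each gave p = 0.1 in an exact permutation test, the smallest that 3 against 3 libraries allow. By gene reads 81.0% of all genes did not overlap either. The shares of a library add to a fixed total, so they are not 8 separate results.

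**Figure D3:**
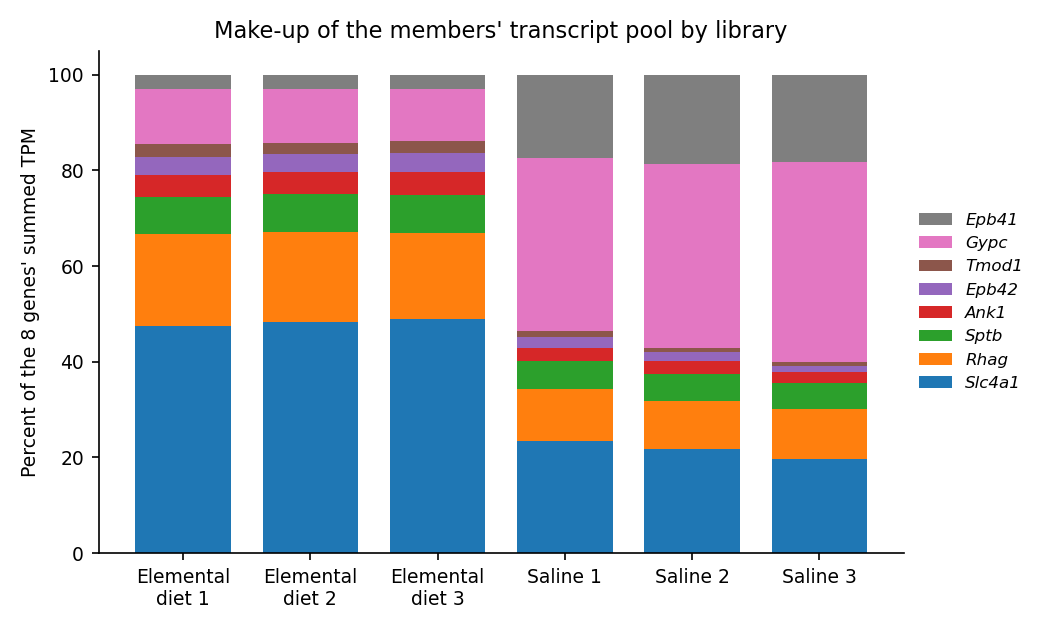
Share of each gene in the summed TPM of the 8 genes, in percent, for each library. Slc4a1 holds the largest share in the elemental diet libraries (48.2% on average) and Gypc in the saline libraries (38.8%).

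Ratios between genes were also taken within each library. Of 21 ratios of TPM computed, 18 did not overlap between groups, with an exact permutation p of 0.1 each and 0.117 after Benjamini-Hochberg adjustment. No such share was computed for ratios of other genes, and by gene reads 81.0% of all genes did not overlap. Epb42 over Slc4a1 was 0.0816, 0.0744 and 0.0792 with the elemental diet and 0.0990, 0.0894 and 0.0619 with saline. These values overlapped (exact permutation p = 0.7), as did Tmod1 over Slc4a1, with means of 0.0523 and 0.0465 (exact permutation p = 0.4), and Epb42 over Ank1, at 0.802 and 0.721 (exact permutation p = 0.7). Ank1 over Slc4a1 differed little in size, 0.0977 ± 0.000994 against 0.116 ± 0.00156 (SD, n = 3), but did not overlap. Taken over Slc4a1, the mean ratio with the elemental diet was 0.793 times that with saline for Rhag, 0.843 times for Ank1, 0.939 times for Epb42 and 1.12 times for Tmod1.

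For spectrin and the junction genes none of the ratios below overlapped between groups. Sptb over Slc4a1 was 0.163 ± 0.00267 with the elemental diet and 0.260 ± 0.0133 with saline. Epb41 over Sptb was 0.388 ± 0.00486 against 3.24 ± 0.204, and Gypc over Slc4a1 0.233 ± 0.0114 against 1.81 ± 0.287. Between the junction partners themselves, Gypc over Epb41 was 3.68 ± 0.219 with the elemental diet and 2.13 ± 0.119 with saline.

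The members were also set against relatives that serve other cells. Sptb over Sptbn1, the general beta spectrin, was 9.04 ± 1.14 with the elemental diet and 0.174 ± 0.0195 with saline, so that the more abundant of the pair changed. The same held for Tmod1 over Tmod3, at 1.68 ± 0.0794 and 0.0316 ± 0.00964. Slc4a1 over Slc4a2, the widely used anion exchanger, was 105 ± 16.5 and 1.99 ± 0.308, and Ank1 over Ank3 57.5 ± 8.22 and 3.78 ± 0.462. Epb41 over its relative Epb41l2 was 6.87 ± 1.14 and 1.06 ± 0.0342.

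A list of 24 paralogs expressed in other cells gave 20 tested genes. Of these, 4 were called higher (38.0% of all genes were) and 13 lower (40.2%), with a median log2 fold change of -0.82. The largest fall was in Slc4a8, a sodium-driven bicarbonate transporter, from 53.6 to 6.45 CPM (log2 -3.05, SE 0.09). Tgm1, a transglutaminase of the epidermis from the family that Epb42 belongs to, fell by 1.77 on the log2 scale, Sptbn4 by 1.33 and Epb41l2 by 1.28. Sptbn1 fell by 1.15 and Sptan1, a spectrin of other cells, by 1.19. Those called higher were Slc4a4 (log2 2.26), Epb41l5 (1.66), Ank3 (0.78) and Tgm2 (0.38), and the call of Tgm2 was lost when the libraries were scaled by their totals or by upper quartiles. Of the Slc4a4 reads 99.3% with the elemental diet and 91.9% with saline lay in introns, and by exon reads alone its change had the opposite sign (log2 -1.32, adjusted p = 0.0437, edgeR quasi-likelihood test). Rhbg, Rhcg, Tgm3 and Tgm5 had too few reads to be tested.

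The other genes of the spectrin-actin skeleton moved in both directions. Of 11 genes, all tested, 6 were called higher (38.0% of all genes were) and 5 lower (40.2%). Their median log2 fold change was 0.77. Add2, the erythroid beta adducin, rose from 7.66 ± 0.434 to 429 ± 23.6 CPM (log2 5.81, SE 0.07), and Dmtn, the actin-bundling protein dematin, from 11.6 ± 1.85 to 354 ± 14.5 CPM (log2 4.93, SE 0.09). Both rose more than 20-fold, as Sptb and Tmod1 did. Mpp1, which binds Gypc and Epb41, rose by less (log2 1.33, SE 0.05), near Epb41 itself, and Tpm1 and Add1 also rose (0.81 and 0.77). Called lower were Tmod2 (-1.47), a neuronal relative of Tmod1 at 0.749 CPM with the elemental diet, Add3 (-1.08), Tpm3 (-0.51), Tmod3 (-0.37) and Actb (-0.18). Against a null of a 1.5-fold change, only Tmod2 and Add3 of these 5 remained called.

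Of 24 other red cell surface and transport proteins, 22 were called higher (38.0% of all genes were) and 2 lower (40.2%). Their median log2 fold change was 2.57. The steepest were Ermap (log2 6.50), an erythroid adhesion and blood group protein, Icam4 (6.28), the Landsteiner-Wiener glycoprotein, and Kel (5.30), the Kell blood group protein. The water channel Aqp1 was the most abundant of them and rose from 53.2 ± 3.12 to 1514 ± 123 CPM (log2 4.83). Cd47, present on most cells, rose by only 0.76. Slc2a1, the glucose transporter GLUT1, fell from 51.5 to 12.9 CPM (log2 -2.00). Bcam, at 12.2 CPM ± 4.96 against 22.7 ± 2.96, was called lower with an adjusted p of 0.0356, a call lost with adjusted p of 0.0504 to 0.103 when any library except elemental diet replicate 1 was left out. The rise of Cd44 (0.36) was not called when library totals or upper quartiles scaled the libraries.

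The profiles most like the members were sought over all tested genes by Euclidean distance between centred log2 CPM values over the 6 libraries. The 5 nearest were Tfrc (distance 0.102), the transferrin receptor, Dmtn (0.147), Aspm (0.170), Btnl10 (0.203) and Prc1 (0.211). Aspm and Prc1 encode spindle proteins of dividing cells. Tfrc was at 1375, 1440 and 1552 CPM with the elemental diet and 53.7, 48.1 and 44.0 CPM with saline. The profile was the median of the members themselves, so the order of their own distances to it is largely built in. Ank1 (0.0822) and Rhag (0.0867), the middle members by log2 fold change, lay nearest of the members to the profile. Sptb (0.451), Slc4a1 (0.463), Tmod1 (0.713) and Epb42 (0.720) lay farther, and Gypc (3.27) and Epb41 (4.18) lay far from it. Of the tested genes outside the set, 988 lay nearer to the profile than Gypc and 2028 nearer than Epb41.

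Intron reads were examined as a share of each gene's total reads. They come from unspliced or partly spliced transcripts, from DNA or from features inside introns. Over whole libraries the intron share was 8.82%, 8.39% and 8.70% with the elemental diet and 14.4%, 13.9% and 13.7% with saline, and the median log2 change of the intron to exon ratio over 13278 genes was -0.63. By that measure 4 members fell (Sptb, Ank1, Epb41 and Gypc), where 57.3% of all genes were called lower, and 1 rose (Epb42), where 4.27% were called higher. When intron and exon reads were scaled separately, so that a change is relative to that of the library, no member was called lower (21.9% of all genes were) and 3 were called higher (17.9% of all genes were), namely Epb42, Tmod1 and Slc4a1. The split of calls over all genes moved with that choice from 6.93% higher to 45.0% higher.

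Sptb carried few intron reads, 3.93%, 3.52% and 3.75% with the elemental diet and 5.79%, 6.88% and 7.32% with saline. The groups did not overlap, and the ratio fell by 0.87 on the log2 scale (SE 0.13, adjusted p = 5.07e-06, edgeR quasi-likelihood test). Ank1 had 12.5%, 12.1% and 11.9% against 19.1%, 17.6% and 17.0%, and its ratio fell by 0.66 (SE 0.12, adjusted p = 3.57e-05). Among uniquely mapped reads alone the Ank1 share was 9.03% ± 0.926 against 19.1% ± 1.92 (SD, n = 3), a log2 change of -1.27. Epb41 (7.51% ± 0.730 against 10.7% ± 1.27) and Gypc (15.4% ± 1.67 against 20.4% ± 2.92) fell by 0.56 and 0.49, with adjusted p of 0.000165 and 0.00182. Relative to the libraries the changes of these 4 were -0.24, -0.03, 0.07 and 0.14 in that order, and none was called.

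Epb42 had the opposite sign. Its intron share was 12.7%, 11.5% and 13.3% with the elemental diet and 9.56%, 5.88% and 5.61% with saline, where the saline values rested on 24, 11 and 6 intron reads. The ratio rose by 0.81 (SE 0.24, adjusted p = 0.00542), and by 1.45 relative to the libraries (adjusted p = 1.62e-05). Without saline replicate 2 the first of these was 0.64 with an adjusted p of 0.0563. The intron share of the whole libraries moved in the other direction.

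Slc4a1 was almost free of intron reads, at 1.87%, 1.80% and 1.82% with the elemental diet and 1.85%, 2.20% and 2.51% with saline. The groups overlapped (exact permutation p = 0.2), and the ratio changed by -0.25 (SE 0.15, adjusted p = 0.167). Rhag stood at 10.96%, 11.01% and 11.06% against 14.9%, 16.2% and 8.67%, and the low value of saline replicate 3 rested on 36 reads. Its ratio changed by -0.33 (SE 0.17, adjusted p = 0.0940), and by -0.57 (adjusted p = 0.00357) without that library. Tmod1 was at 19.9%, 21.6% and 21.1% against 17.4%, 26.4% and 14.7%, with 19, 19 and 10 intron reads with saline. Its change of 0.13 (SE 0.24, adjusted p = 0.661, edgeR quasi-likelihood test) was not called. Among uniquely mapped reads alone the Tmod1 share was 35.2% ± 1.77 against 35.0% ± 5.76 (SD, n = 3). Over the 8 members the exact permutation p of the shares was 0.1 for the 5 that did not overlap, or 0.16 after Benjamini-Hochberg adjustment. In 4 of these 5 the share was lower with the elemental diet and in Epb42 it was higher, which held without overlap for 60.0% and 5.49% of the 13278 genes. The count of lower members is therefore near the background.

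**Figure D4:**
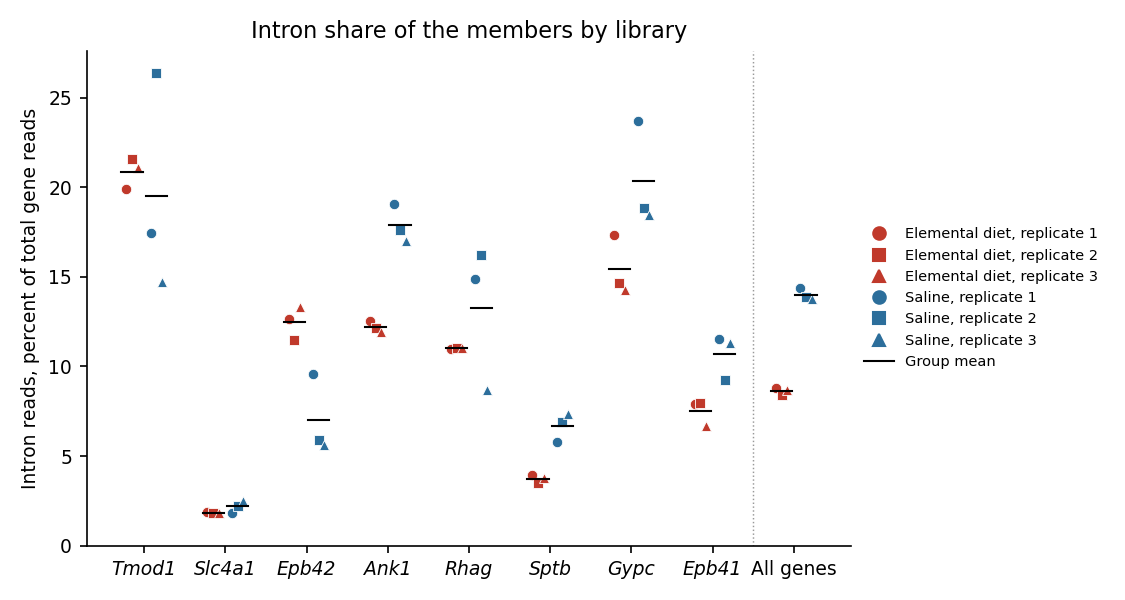
Intron reads as a percentage of the total reads of each gene and of the whole library, 1 point per library. The saline points lie higher for Sptb, Ank1, Epb41, Gypc and the whole library (13.7% to 14.4% against 8.39% to 8.82%), and lower for Epb42.

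Reads across exon-exon junctions, a mark of spliced RNA, were compared with the other exon reads after the members' values had been seen. Over whole libraries the junction share of exon reads was 41.1%, 41.9% and 42.1% with the elemental diet and 36.2%, 36.8% and 36.7% with saline. The ratio of junction to other exon reads was called higher with the elemental diet in 6 of the 8 members, as in 8.57% of 12377 genes, and called lower in none, as against 0.654% of genes. The junction shares themselves were higher without overlap in 7 of the 8 members, beside 22.4% of all genes, and lower without overlap in none, beside 3.59%. Tmod1 changed most, with a junction share of 27.1%, 25.2% and 28.0% against 6.67%, 11.3% and 13.8% (log2 1.70, SE 0.31, adjusted p = 0.000355). Its saline shares rested on few reads. Tmod1 had 109, 72 and 68 reads in all in the saline libraries, of which 19, 19 and 10 lay in introns. Epb42 followed with 32.6%, 34.3% and 34.4% against 20.3%, 19.3% and 14.9% (log2 1.13, SE 0.17, adjusted p = 2.60e-05). The median over all genes tested was 0.12.

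Ank1 (log2 0.75), Sptb (0.72), Rhag (0.58) and Gypc (0.57) were the others called, with adjusted p of 5.15e-06, 1.05e-08, 0.000495 and 0.00658. The Sptb share was 43.6% ± 0.920 against 31.9% ± 0.395 (SD, n = 3). The Gypc share was low in both groups, 7.95% ± 0.108 against 5.51% ± 1.54, and its call was lost without saline replicate 1 (0.35, adjusted p = 0.114). Slc4a1 had 36.4%, 38.9% and 40.4% against 25.1%, 35.1% and 23.8%, a change of 0.69 that was not called (adjusted p = 0.158). Saline replicate 2 set that spread, and without it the change was 0.95 (adjusted p = 4.17e-10). Epb41, at 28.8% ± 1.07 against 26.0% ± 1.73, changed by 0.21 and was not called (adjusted p = 0.0701); without elemental diet replicate 1 or without saline replicate 3 the adjusted p was 0.0382 and 0.0397. When the read classes were scaled separately 5 members were called higher (2.58% of all genes were), the call of Gypc being lost.

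**Figure D5:**
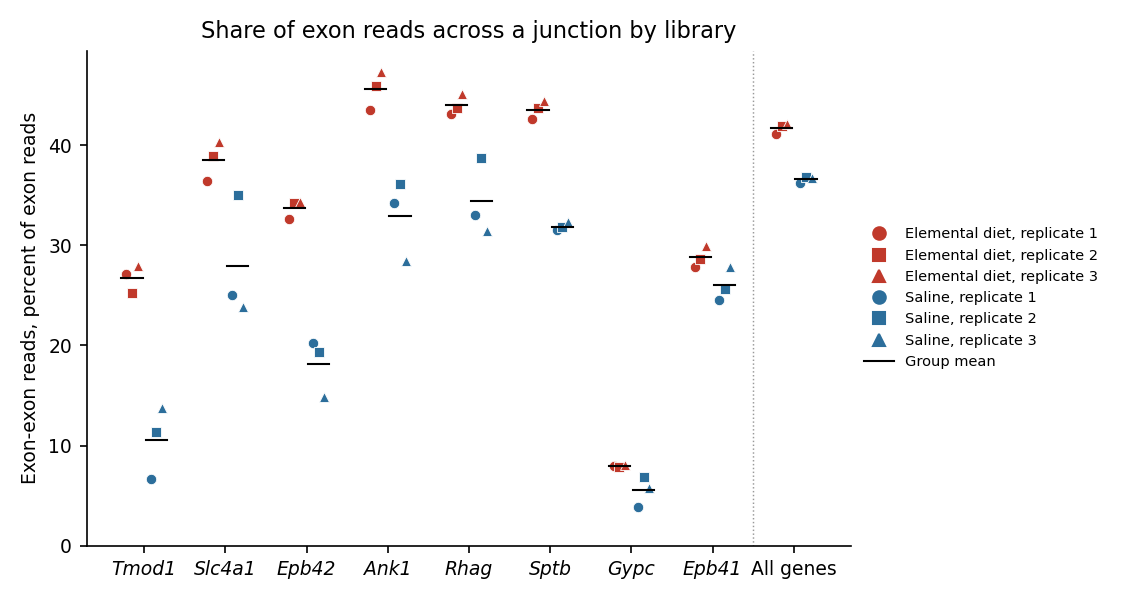
Reads across exon-exon junctions as a percentage of exon reads, for each gene and the whole library, 1 point per library. The elemental diet points lie above the saline points for 7 genes (22.4% of all genes separate this way) and for the whole library, as for Tmod1 (25.2% to 28.0% against 6.67% to 13.8%), and overlap for Epb41. Tmod1 had 68 to 109 reads in all per saline library.

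Shared and overlapping reads limit 2 members. Of the Tmod1 reads 59.2% ± 0.742 were unique with the elemental diet and 53.9% ± 6.29 with saline (SD, n = 3), and Tstd2 on the opposite strand overlaps Tmod1 by 1287 bases. Summed over each group, Tstd2 had 3244 reads with the elemental diet and 2605 with saline, beside 8811 and 249 for Tmod1. No source used here tells whether counting used strand, so reads in the overlap cannot be told apart. Of the Ank1 reads 73.1% ± 0.851 and 68.2% ± 0.447 were unique. From unique reads alone the log2 fold changes were 5.55 for Tmod1 and 4.98 for Ank1, both called. Uniquely assigned reads made up 99.1% or more of the reads of the other 6 members in every library.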

How the data were processed

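The 6 RNA-seq libraries, 3 per group, were grouped by title. Poly(A) RNA was sequenced in 75 bp pairs, per the labels' protocols, which name fibroblasts or keratinocytes as the RNA source, while the tissue label names salivary gland. Per the file headers, the deposited values are whole-number read counts per gene, in total and unique, divided into exon, intron and exon-exon reads. In all 41325 rows the total was the sum of exon and intron reads. Per the file headers, the authors also gave TPM and RPKM per gene; TPM was used for levels per length and RPKM as its alternative. The builds GRCh37 and GRCm38 are listed in the submitters' processing notes. The aligner, the counting tool and any use of strand were not given in the sources used here.

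Total gene reads (29053287 to 33073125 per library, 86.0% to 87.7% unique) were tested with edgeR 4.0.16 in R 4.3.3 (glmQLFit robust, glmQLFTest, two-sided) with TMM scaling and filterByExpr, which left 18303 genes, and Benjamini-Hochberg adjustment over all of them at 0.05. SE values are the log2 fold change over the root of F. Intron to exon ratios (13278 genes) and junction ratios (12377 genes) were tested in the same way as an interaction of read class and diet, with the library as a block and 1 library size for both classes. Single values were compared with exact permutation tests (20 arrangements). Reads carry no molecular identifiers used here, so floors of 3 reads cover counting error only. Replicate pairs differed by 2.82 to 5.23 times sampling noise, and each was counted. Counts were simulated 5 times with 200 changed genes and 1 spread for all genes (a coefficient of variation of 8.26%). The gene read test (17992 genes) recovered 65.8% of genes changed 1.5-fold, 88.7% at 2-fold and 98.2% at 4-fold. The intron ratio test (13045 genes) recovered 70.3%, 87.5% and 97.9%. In the data the spread differed between genes and 78.1% of genes were called, so these rates do not give the power on these data.

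The members and the gene lists were chosen with earlier results of these data known. The text names all members, the 3 called genes with the largest rise and fall and the 2 most abundant genes of each pathway list, the 2 most abundant and the first gene of each marker list, and the 5 nearest profiles, leaving out predicted genes, clone names and pseudogenes; other names were chosen after their values were seen, and the values of some listed genes are not reported here. Promoter windows were cut to the 250 bases before the start. Alternatives were other scalings (RLE, upper quartile, none), no low-count filter, DESeq2 1.42.0, a replicate block, each library left out, unique or exon reads alone and a 1.5-fold null.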

Additional observations from a re-analysis of the deposited data

How the results depend on the processing

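All 8 members remained called higher by gene reads under each of 15 alternatives. Without composition scaling the median of all genes moved from -0.08 to -0.39, and with upper quartiles to -0.35, and 36.9% and 38.2% of calls were higher in place of 48.6%; Epb41 then changed by 1.17 and Gypc by 1.92 without scaling. Against a null of a 1.5-fold change 4432 genes were called higher and 4862 lower in place of 6951 and 7352, with 2 other skeleton genes and 1 surface protein lower. The surface list had 1 gene lower with no low-count filter, and 1 to 2 when single libraries were left out. Each gene's group mean was subtracted from its log2 CPM, and the remainders were correlated between elemental diet and saline libraries over all tested genes. In these remainders the correlation was at most weak between libraries of the same replicate number (r of 0.117, -0.01 and 0.06). Of all pairs compared, 0.117 was the highest. The adipocyte marker Cfd was at 39.5 and 47.7 CPM of library totals in replicate 1 of the 2 groups, and at most 0.136 elsewhere. Whether replicate numbers mark shared handling was not tested. The replicate block gave 8 of 8 members, with 6925 genes higher and 7316 lower.

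Separate scaling of intron and exon reads gave 3 members higher and 0 lower, and 2373 genes higher and 2903 lower in place of 567 and 7611. It reversed Epb41 (0.070), Slc4a1 (0.38), Rhag (0.30) and Gypc (0.14), by construction relative to the libraries. Tmod1 reversed with unique reads (-0.010) and without saline replicate 3 (-0.029; 0.42 without saline replicate 2), and the cause was not tested. Leaving out single libraries gave 0 to 1 member higher and 4 to 5 lower. For junction reads, a comparison added after the data were seen, separate scaling gave 319 genes higher and 2315 lower in place of 1061 and 81 and reversed Epb41 (-0.086). Leaving out single libraries gave 629 to 1186 genes higher and 5 to 7 members. Depth limits the saline intron shares, which rest on 6 to 24 reads for Epb42 and 10 to 19 for Tmod1. It also limits the saline junction shares of Tmod1, which had 68 to 109 reads in all per saline library.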

Other observations

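Other blood cell lists moved as well. Sums are per library total and values of single genes are scaled with TMM factors. All 10 T cell markers fell, from a summed 580 to 703 CPM with saline to 65.2 to 76.7 with the elemental diet, and Lck, a T cell kinase, fell from 124 to 23.4 CPM. All 10 neutrophil precursor markers rose, from a sum of 6.47 to 7.75 CPM to 208 to 234, led by Mpo, the azurophil granule peroxidase, at 73.2 CPM against 0.133. Of 10 red pulp macrophage markers 9 fell, with sums of 837 to 1030 CPM against 2003 to 2473, and Spic, the factor that specifies these splenic cells, fell from 83.3 to 30.7 CPM. Of 10 endothelial markers 7 fell and 2 rose, and of 8 adipocyte markers 2 had enough reads for the test and neither was called. Of the 17 muscle markers 10 were tested, 6 of which fell and 1 rose. The share of all genes called was 38.0% higher and 40.2% lower.

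Some transcripts that lie within the Ank1 span were counted apart from it. Gm15816, annotated as antisense, overlaps Ank1 by 10792 bases and had 160 reads summed over the elemental diet group and 16 over the saline group, beside 50995 and 2078 for Ank1. Mir486, on the same strand, had 0 reads in all 6 libraries, which were made from polyadenylated RNA. Without knowledge of strand use the Gm15816 reads cannot be told apart from Ank1 reads. The intron shares of the partner genes were also mixed in sign. Rhd, which needs Rhag to reach the surface, had 14.7%, 13.0% and 12.4% intron reads with the elemental diet and 22.0%, 31.8% and 30.5% with saline. Dmtn had 8.22% ± 0.163 against 5.77% ± 2.26 (SD, n = 3), the direction of Epb42. Icam4 had no intron read in any library among 1762 to 1925 reads per elemental diet library.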
